A study of Mus musculus with 49 samples.

Results

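The mitochondrial genome transcripts are the 37 genes, of 52636 in the count table, whose symbol begins with mt-. They are the 13 mRNA genes, 2 rRNA genes and 22 tRNA genes of the mitochondrial chromosome. They were measured by RNAseq in D1 and D2 medium spiny neurons (D1-MSNs and D2-MSNs), the main projection neurons of the nucleus accumbens, isolated by 3 methods from mice bred on a C57BL/6J background. For whole cell-FACS, living cells that carried a cytoplasmic fluorophore under the Drd1 or the Drd2 promoter were sorted from fresh tissue digested with papain. For nuclear-FACS, frozen tissue came from crosses of Drd1-cre or Drd2-cre with Thy1-loxPSTOPloxP-EGFP-F, heterozygous for the nuclear GFP, and GFP-positive nuclei were collected. For RiboTag, ribosomes with the HA-tagged cytosolic ribosomal protein Rpl22, switched on by Drd1-cre or Drd2-cre, were pulled down from fresh tissue. The mice were untreated in the labels, every library stood for 1 animal, and ages are not given in the sources used here. Each method had its own mouse lines and tissue handling, so that these cannot be told apart from the method.

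A group was set for 47 libraries. They were 8 D1 and 6 D2 whole cell libraries, 6 D1 and 5 D2 nuclear libraries, 6 D1 and 6 D2 RiboTag libraries labelled male, and 5 D1 and 5 D2 RiboTag libraries labelled female. Total counts ranged from 3701255 to 68777008, so that 3 counts, the level a count of 0 still allows, stood for 0.0436 to 0.811 CPM, the count of a gene scaled to a common library total. Drd1 and Drd2 separated the labelled cell types in every method, least in nuclei, where Drd1 was 10.6 to 27.9 CPM in D1 and 3.33 to 8.00 CPM in D2 libraries. In nuclear D1 libraries Drd2, at 49.2 to 197 CPM, was nevertheless above Drd1, and sums of 5 markers of each MSN type overlapped between the nuclear groups (D1-MSN markers 35.4 to 57.0 CPM in D1 and 28.4 to 42.3 CPM in D2, D2-MSN markers 209 to 579 CPM in D1 and 306 to 609 CPM in D2). Of the 12 RiboTag libraries labelled male, 6 had less Ddx3y, a gene of the Y chromosome, than Xist, the RNA of the inactive X. They were 4 of 6 D1 and 2 of 6 D2 libraries. The whole cell and nuclear libraries were all labelled male. Among them, nuclear D2 number 7 had less Ddx3y than Xist, at 6.48 and 7.565 CPM. The term "labelled male" is therefore used here as a label only. Whole cell D1 number 5 stood apart from its group in the members themselves, and values without it are given.

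Mitochondria keep a small circular genome that is copied into long RNAs from both strands. Most genes are read from the heavy strand, while mt-Nd6 and several tRNA genes are read from the light strand. The tRNAs lie between the other genes, and cutting them out of the long RNA sets the rRNAs and mRNAs free. The mRNAs encode subunits of the respiratory chain, namely of complex I (mt-Nd1 to mt-Nd6 and mt-Nd4l), complex III (mt-Cytb), complex IV (mt-Co1 to mt-Co3) and the ATP synthase (mt-Atp6 and mt-Atp8), and are translated by ribosomes inside the organelle that contain mt-Rnr1 and mt-Rnr2. Mitochondria lie in the cytoplasm, outside the nucleus, and their ribosomes do not contain Rpl22.

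The genes lie so close that some overlap, and parts of this genome have copies in nuclear chromosomes, which bears on counts that leave out fragments with several matches and count a fragment for every gene it touches, without strand. Sequences are from GENCODE transcripts on GRCm38, 5′ to 3′ on the gene's strand. The first is mt-Atp8 (chrM:7766-7969, plus strand), shown because it was nearly absent from nuclei, with the 43 bases it shares with mt-Atp6 in capitals.
mt-Atp8: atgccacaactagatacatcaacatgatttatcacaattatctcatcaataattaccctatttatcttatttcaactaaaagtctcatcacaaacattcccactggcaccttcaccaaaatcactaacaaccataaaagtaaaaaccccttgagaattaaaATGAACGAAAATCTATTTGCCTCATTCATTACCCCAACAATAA
The ends of mt-Nd6 (chrM:13552-13611, minus strand) and mt-Nd5 (chrM:13506-13565, plus strand) show where the light-strand mRNA meets its heavy-strand neighbour, with the 14 bases that lie opposite each other in capitals.
mt-Nd6: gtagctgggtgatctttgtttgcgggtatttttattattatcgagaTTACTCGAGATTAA
mt-Nd5: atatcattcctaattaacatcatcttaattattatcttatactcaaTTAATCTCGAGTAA
A stretch of mt-Co2 (chrM:7154-7303, plus strand) and its match in the pseudogene Gm13341 on chromosome 2 (chr2:22587672-22587821, minus strand) show how near such a copy is, with the 3 bases that differ in capitals.
mt-Co2: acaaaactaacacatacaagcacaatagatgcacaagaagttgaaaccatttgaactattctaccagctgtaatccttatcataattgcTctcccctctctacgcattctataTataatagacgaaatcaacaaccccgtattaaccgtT
Gm13341: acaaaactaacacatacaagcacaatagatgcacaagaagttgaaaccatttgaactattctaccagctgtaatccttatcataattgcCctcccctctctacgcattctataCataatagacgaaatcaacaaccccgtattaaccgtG
The tRNA genes mt-Ts1 (chrM:6870-6938, minus strand), a serine tRNA, and mt-Tl1 (chrM:2676-2750, plus strand), a leucine tRNA, are shown because they led the tRNAs in different methods.
mt-Ts1: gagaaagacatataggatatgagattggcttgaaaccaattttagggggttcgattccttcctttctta
mt-Tl1: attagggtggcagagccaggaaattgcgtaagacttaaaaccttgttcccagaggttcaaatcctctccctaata

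The members made up between 0.0298 and 1.78% of all counts of a library. In nuclear D1 libraries their share was 0.162% at the lowest, 0.823% at the median and 1.78% at the highest, and in nuclear D2 libraries it was 0.0403, 0.114, 0.133, 0.0298 and 0.0570%. Every nuclear D2 library was thus below every nuclear D1 library, and the D1 libraries fell into 3 from 0.162 to 0.265% and 3 from 1.38 to 1.78%. Whole cell D1 libraries ranged from 0.133 to 1.40% with a median of 0.269%, and without number 5, the highest, the median was 0.261%. Whole cell D2 libraries ranged from 0.0903 to 0.331% with a median of 0.137%, within the D1 range but for the 2 lowest.

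RiboTag libraries lay close to each other. Their shares ranged from 0.0416 to 0.0694% in D1 and from 0.0407 to 0.0552% in D2 libraries labelled male. Among those labelled female, the D1 libraries were at 0.0516, 0.0824, 0.0391, 0.0582 and 0.0680% and the D2 libraries at 0.0584, 0.0596, 0.0532, 0.0511 and 0.0548%. Exact 95% binomial intervals (Clopper-Pearson) of these shares reached at most 4.29% of the value to either side, and cover counting error only. The base of the share differed between methods, since 3 other genes (CT010467.1, Gm42418 and AY036118) took 70.1 to 75.9% of the counts of RiboTag libraries. Without the 10 highest other genes of each library, the median share was 0.382 to 0.420% over the 4 RiboTag groups, 1.96% in nuclear D1, 0.0662% in nuclear D2, 0.284% in whole cell D1 and 0.185% in whole cell D2 libraries. On this base the RiboTag medians were above the whole cell medians, while on all counts they were below them.

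**Figure D1:**
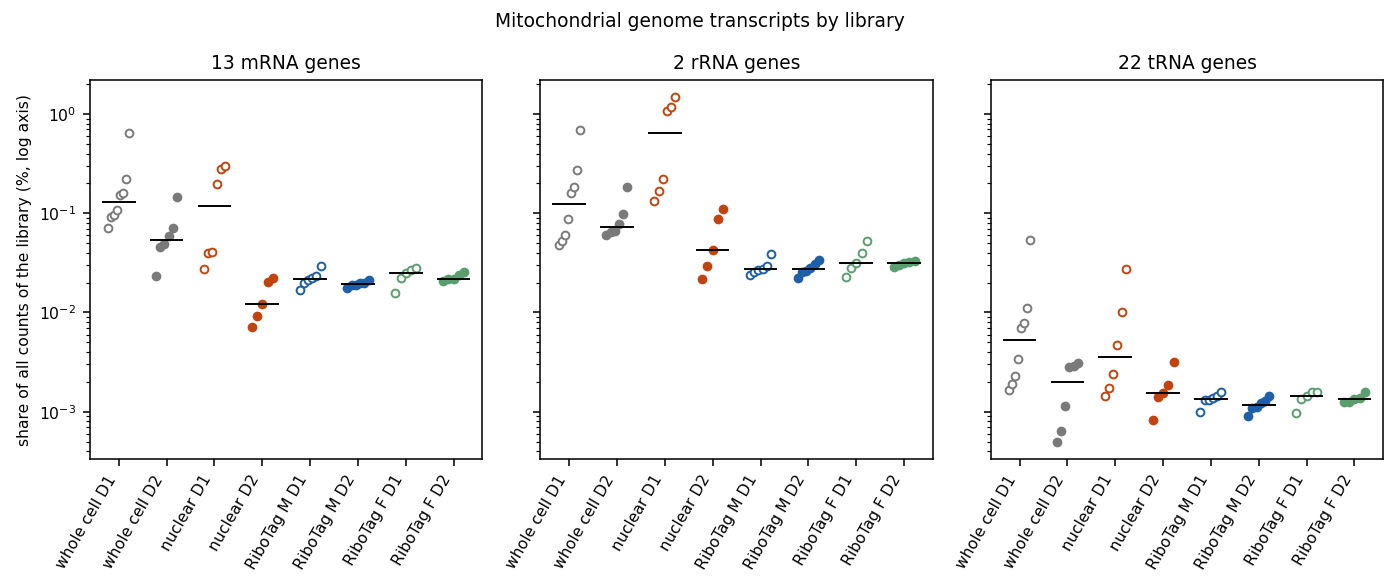
Share of all counts of a library (%, log axis) on the 13 mRNA, 2 rRNA and 22 tRNA genes, with a point for each library (open, D1; filled, D2) and a bar at the median of the group. Nuclear D2 libraries lie below all nuclear D1 libraries for mRNA (0.00723 to 0.0221% against 0.0275 to 0.299%) and rRNA (0.0217 to 0.111% against 0.133 to 1.47%).

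rRNA took most of the mitochondrial counts in every nuclear and RiboTag library and in some whole cell libraries. The 2 rRNAs took 77.7 to 85.3% of the mitochondrial counts in nuclear D1, 73.0 to 83.5% in nuclear D2, 31.1 to 66.2% in whole cell D1, 44.9 to 73.5% in whole cell D2 and 52.8 to 63.8% in RiboTag libraries. The nuclear range did not overlap with the whole cell D1 range or the RiboTag range. The 22 tRNAs together took at most 5.07% in any library. The libraries were made after removal of ribosomal RNA, and how far that step removed mt-Rnr1 and mt-Rnr2 was not tested.

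Per length, mt-Rnr1 led in nuclei and RiboTag, and mt-Rnr2 in whole cells. The median level of mt-Rnr1 was 3782 CPM per kilobase in nuclear D1, 313 in nuclear D2, 253 in whole cell D1 and 229 in whole cell D2 libraries. That of mt-Rnr2 was 1821, 81.8, 632 and 340 CPM per kilobase in the same groups. In RiboTag libraries mt-Rnr1 stood at medians of 148 to 187 and mt-Rnr2 at 79.9 to 91.7 CPM per kilobase. The order of the 2 rRNAs in whole cells was therefore the reverse of that in the other methods.

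Among the mRNAs, mt-Co1, a catalytic subunit of complex IV, was highest in whole cells, with medians of 216 CPM per kilobase in D1 and 117 in D2 libraries, followed by mt-Atp6 and mt-Atp8 at 178 and 114 in D1 libraries. In nuclei mt-Nd6 was highest, at 235 CPM per kilobase in D1 and 25.5 in D2 libraries. In RiboTag libraries mt-Atp6, mt-Nd6 and mt-Atp8 held the first 3 places among mRNAs in all 4 groups, with medians from 28.7 to 37.5 CPM per kilobase. The lowest mRNA was mt-Nd3 in whole cells and RiboTag, at 39.4 CPM per kilobase in whole cell D1 libraries, and mt-Co3 in nuclear D1 and mt-Atp8 in nuclear D2 libraries, at medians of 0.469 and 0. In whole cell groups the ranges of every pair of neighbours in the order overlapped. The same held in nuclear D1 libraries, while in nuclear D2 libraries mt-Rnr2 lay above mt-Nd6 and mt-Nd4l above mt-Co3 without overlap. These ranges leave aside that the genes were counted in the same libraries. Within every nuclear D1 library mt-Rnr1 lay above mt-Rnr2, mt-Rnr2 above mt-Nd6, and mt-Nd4 above mt-Nd3. In every RiboTag group mt-Rnr2 lay above the highest mRNA without overlap.

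**Figure D2:**
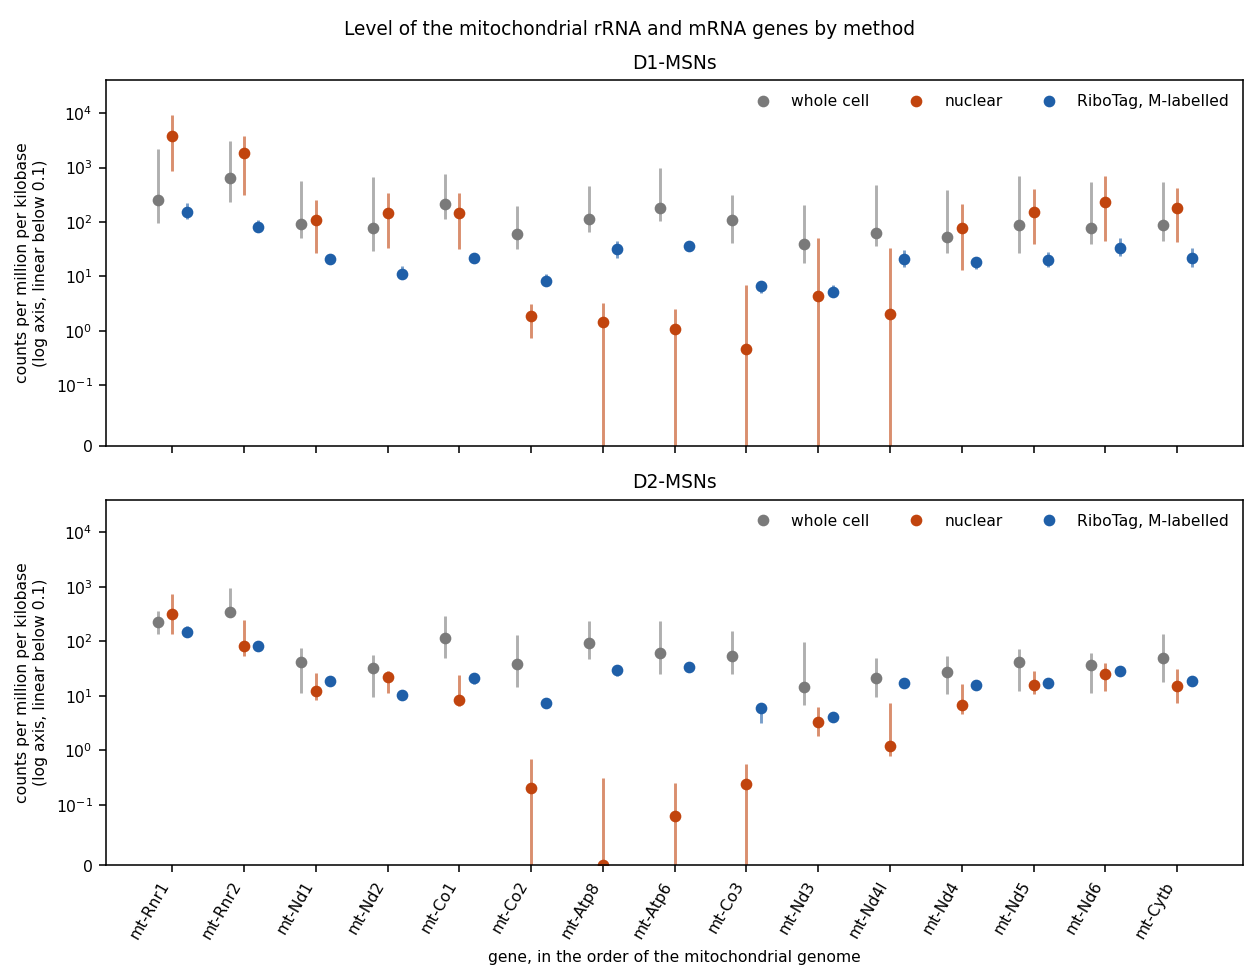
Level of the rRNA and mRNA genes in D1-MSNs (top) and D2-MSNs (bottom) in the order of the genome (CPM per kilobase, log axis, linear below 0.1), with points at the median and lines from the lowest to the highest library of whole cell, nuclear and RiboTag (labelled male) groups. mt-Co2, mt-Atp8, mt-Atp6 and mt-Co3 fall from medians of 61.4 to 178 CPM per kilobase in whole cell D1 to 0.469 to 1.87 in nuclear D1 libraries, while the other mRNAs stand at 77.2 or more in nuclear D1 libraries, apart from mt-Nd3 and mt-Nd4l.

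Sorted D2-MSN nuclei had lower counts of mitochondrial RNA than D1-MSN nuclei. mt-Rnr1, the small rRNA, was at 842 CPM at the lowest, 3612 at the median and 8719 at the highest in D1, and at 185, 536, 719, 130 and 299 CPM in D2 libraries. mt-Rnr2, the large rRNA, ranged from 490 to 5956 CPM with a median of 2881 in D1, and was at 110, 347, 391, 87.0 and 129 CPM in D2 libraries. Both rRNAs were thus lower in each D2 library than in each D1 library. In edgeR's quasi-likelihood test with Benjamini-Hochberg adjustment, mt-Rnr1 fell by 4.24 ± 0.87 (log2 fold change ± SE, D2 versus D1, adjusted p = 0.00912) and mt-Rnr2 by 4.57 ± 0.92 (adjusted p = 0.00869). Mitochondria lie outside the nucleus, and how their RNAs came into the sorted pools was not tested. A lower count can come from fewer such RNAs per nucleus, from fewer nuclei that carry them or from other differences between the libraries. These cannot be told apart.

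Of the 32 members tested in nuclei, 19 fell in D2-MSNs and 0 rose, against 10.4% of all 9870 genes tested that fell. A gene was called at an adjusted p of at most 0.05 with an absolute log2 fold change above 0.38. The calls were 9 of 12 mRNAs, 2 of 2 rRNAs and 8 of 18 tRNAs, and the median log2 fold change was -3.41 over the members and 0.08 over all genes tested. Genes were tested that had more than 1 CPM in at least 2 libraries and at least 1 FPKM (CPM per kilobase of gene span) in at least 1. The first limit was met through D1 libraries alone by 15 of the 32 members, for which the filter favours a fall, and 12 of the 19 called members met it in both cell types. The 5 members not tested were mt-Atp8, mt-Ts1, mt-Td, mt-Tk and mt-Tg. With every gene in the fit, 29 of 37 members fell, while the median of all genes moved to 0.77 and that of the members to -4.45. The shares of all genes called in that fit and by DESeq2 are not given here. DESeq2 called 21 members. With library sizes taken as total counts, which moved the median of all genes to 0.35, the median of the members was -2.65 and 14 fell. Over all genes, 654 rose and 1031 fell with TMM scaling, and 322 rose and 313 fell with total counts.

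Complex I mRNAs were among the called genes. mt-Nd5 was at 73.1 CPM at the lowest, 285 at the median and 735 at the highest in D1, against 23.1, 53.1, 50.8, 20.1 and 28.6 CPM in D2 nuclei, and fell by 4.15 ± 0.81 (edgeR, adjusted p = 0.00833). mt-Nd6, the mRNA of the light strand, ranged from 23.6 to 367 CPM with a median of 122 in D1 and was at 8.18, 20.9, 20.4, 6.48 and 13.2 CPM in D2 nuclei. It fell by 4.37 ± 0.88 (edgeR, adjusted p = 0.00880), with no overlap between the groups. The heavy-strand genes mt-Nd1, mt-Nd2 and mt-Nd4 fell by 3.88, 3.95 and 4.21. mt-Nd3 and mt-Nd4l had log2 fold changes of -2.57 and -2.47 and did not pass (edgeR, adjusted p = 0.0917 and 0.138).

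The other complexes were likewise represented. mt-Cytb, the complex III subunit, was at 48.5, 209 and 489 CPM (lowest, median, highest) in D1 and at 12.8, 32.5, 35.7, 8.45 and 17.0 CPM in D2 nuclei, and fell by 4.26 ± 0.87 (edgeR, adjusted p = 0.00910). mt-Co1 of complex IV was at 50.0, 222 and 524 CPM in D1 and at 12.8, 37.8, 35.5, 9.88 and 12.4 CPM in D2 nuclei, and fell by 4.35 ± 0.85 (edgeR, adjusted p = 0.00833). Neither gene's groups overlapped. mt-Co2 fell by 3.11 ± 0.78 (edgeR, adjusted p = 0.0182) from levels of at most 2.18 CPM, and mt-Atp6 of the ATP synthase fell by 3.79 ± 1.16 (edgeR, adjusted p = 0.0388) from at most 1.74 CPM. Both genes passed the limit on low values through D1 libraries alone, so that the filter favours their fall. mt-Co3 had a log2 fold change of -3.31 and did not pass (edgeR, adjusted p = 0.122). mt-Atp8 of the ATP synthase was at 0.669, 0, 0.116, 0, 0.521 and 0.491 CPM in D1 and at 0, 0.0637, 0.0426, 0 and 0 CPM in D2 nuclei, where 3 counts stood for 0.0436 to 0.782 CPM in D1 and 0.0637 to 0.811 CPM in D2 libraries. The highest D1 value lay well above its library's 0.0436 CPM, and every D2 value was at or under the level of 3 counts in its library.

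All D2 libraries were below all D1 libraries in CPM for 7 of 13 mRNAs (mt-Nd1, mt-Nd2, mt-Co1, mt-Co2, mt-Nd5, mt-Nd6 and mt-Cytb), 2 of 2 rRNAs and 0 of 22 tRNAs, against 0.562% of the 51744 genes with a count. For mt-Co2 this rests on a count of 0 in D2 number 7, which allows up to 0.811 CPM, above the lowest D1 library at 0.510 CPM. Of the tRNAs, mt-Tq, mt-Te and mt-Tm, those for glutamine, glutamate and methionine, had the largest falls. mt-Tq was at 0.866, 4.98 and 27.6 CPM (lowest, median, highest) in D1 and at 0.640, 1.70, 1.26, 0.468 and 2.43 CPM in D2 nuclei, with a log2 fold change of -3.99 ± 0.94 (edgeR, adjusted p = 0.0140). mt-Te, which passed the limit on low values through D1 libraries alone, and mt-Tm fell by 3.96 and 3.71. The D1 and D2 ranges of these tRNAs overlapped.

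The nuclear libraries differed in more than these genes. The 3 D1 libraries with the highest mitochondrial share, numbers 1, 5 and 6, were also those in which CT010467.1, Gm42418 and AY036118 took most counts, 55.9, 49.1 and 52.8%, against 16.4 to 26.5% in the other D1 and 3.46 to 10.9% in the D2 libraries. The sum of 5 endothelial markers was 8.26 to 150 CPM in D1 and 176 to 296 CPM in D2, that of 5 microglia markers 42.7 to 170 and 173 to 219 CPM, and that of 5 astrocyte markers 95.3 to 263 and 194 to 220 CPM, while that of 5 oligodendrocyte markers, the highest of these, was 364 to 791 and 332 to 745 CPM, with none of these markers at 0 throughout a group. Their part in the difference was not tested. The study's sample list names lanes L004 and L005. With lane as a covariate 11 members fell. The median log2 fold change of the members was -4.59 within L004 (3 D1, 2 D2) and -1.54 within L005 (3 D1, 3 D2). In either lane edgeR called 0 members, as for all genes, while 22 and 10 members had an unadjusted p under 0.05. The numbers of all genes at that limit within lanes are not given here. Within L005, mt-Nd3 and mt-Nd4l had log2 fold changes of 0.19 and 0.84. DESeq2 was not run within lanes. Without D2 number 5 the count was 10, without D2 number 1 it was 11, and the other single omissions left 14 to 22.

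In whole cells no member was called between D2- and D1-MSNs. Of 36 members tested, 0 were called by edgeR and DESeq2 called 4, while 0.501% of all 16760 genes were called lower by edgeR. An unadjusted p under 0.05 (edgeR) was found for 24 members and for 2256 of all genes tested. The median log2 fold change was -1.92 over the members and -0.05 over all genes. Without D1 number 5 it was -0.98 over the members, with 10 at an unadjusted p under 0.05 (edgeR). The number of all genes at that limit without D1 number 5 is not given here. mt-Nd4l was closest to a call, with 10.7, 18.5 and 145 CPM (lowest, median, highest) in D1 and 2.81, 6.27 and 15.0 CPM in D2 libraries, and a log2 fold change of -2.07 ± 0.56 (edgeR, adjusted p = 0.0697). mt-Nd1 ranged from 49.3 to 536 CPM in D1 and from 10.7 to 71.4 CPM in D2 libraries (-1.71 ± 0.46, edgeR, adjusted p = 0.0703). mt-Rnr2 ranged from 364 to 4923 CPM and from 437 to 1498 CPM (-0.90 ± 0.48, edgeR, adjusted p = 0.438). The D1 and D2 ranges of these 3 genes overlapped, and without D1 number 5, which held the highest values, the log2 fold changes of mt-Nd4l, mt-Nd1 and mt-Rnr2 were -1.10, -0.98 and -0.26. With the lanes of D2 number 3 kept apart 6 members were called, without D1 number 8 or D2 number 1 the count was 2, without D2 number 6 it was 1, and with total counts as library size it was 2.

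In RiboTag libraries few members were called between cell types. In those labelled male, 1 of 21 members tested was called lower in D2-MSNs, against 2.57% of all 6800 genes. The median log2 fold change was -0.16 over the members and 0.00 over all genes. An unadjusted p under 0.05 (edgeR) was found for 7 members and for 1465 of all genes tested. In the 6 libraries with more Ddx3y than Xist, D1 numbers 5 and 6 and D2 numbers 1, 3, 4 and 5, the median turned to 0.12 over 19 members tested. Ddx3y was below Xist in 4 of 6 D1 and 2 of 6 D2 libraries, so that it went in part with cell type. The called gene was mt-Nd3, a small complex I subunit, at 1.62, 1.83 and 2.44 CPM (lowest, median, highest) in D1 and 1.21, 1.40 and 1.62 CPM in D2 libraries. Each D2 library was below each D1 library, by a narrow margin at the edge, the log2 fold change was -0.44, and the adjusted p was 0.0350 (edgeR). The call was lost with every gene in the fit, in those 6 libraries, and without D1 number 2, 4 or 5 or D2 number 1, 3, 5 or 6, and without D1 number 6 the members called were 2. mt-Rnr1 and mt-Rnr2 differed by -0.02 ± 0.11 and -0.01 ± 0.08.

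In libraries labelled female, 0 of 21 members tested were called by edgeR or by DESeq2, and 1.61% of all 7067 genes were called lower. In edgeR, 3 members and 1135 of all genes tested had an unadjusted p under 0.05. mt-Nd3 had a log2 fold change of -0.24 there (edgeR, adjusted p = 0.562). Between libraries labelled female and male, averaged over cell types, 0 of 22 members were called by edgeR, and 0.0418% of 7184 genes were called lower. An unadjusted p under 0.05 (edgeR) was found for 1 member and for 596 of all genes tested. The interaction of label and cell type gave 0 members, with 7 members and 509 of all 7184 genes at an unadjusted p under 0.05 (edgeR). DESeq2 was not run for these 2 tests.

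For many members the cell type difference was lower in nuclei than in the other methods. In a fit of all libraries labelled male, the D2 to D1 difference was lower in nuclei than in whole cells for 18 of 37 members (12 mRNAs, 2 rRNAs and 4 tRNAs), against 16.7% of all 36239 genes. It was lower in nuclei than in RiboTag for 24 members (13 mRNAs, 2 rRNAs and 9 tRNAs), against 12.5% of all genes. For mt-Rnr2 these differences of differences were -5.15 ± 0.93 and -5.80 ± 0.98 (log2, edgeR, adjusted p = 0.000146 and 0.000475), and for mt-Cytb -4.52 ± 0.87 and -5.23 ± 0.92 (edgeR, adjusted p = 0.000256 and 0.000534). With total counts as library size, 6 and 12 members were lower. Between RiboTag and whole cells 0 members differed by edgeR, and 0.0221% of genes were called lower. An unadjusted p under 0.05 (edgeR) was found for 5 members and for 1602 of all 36239 genes. DESeq2 was not run for these interactions.

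**Figure D3:**
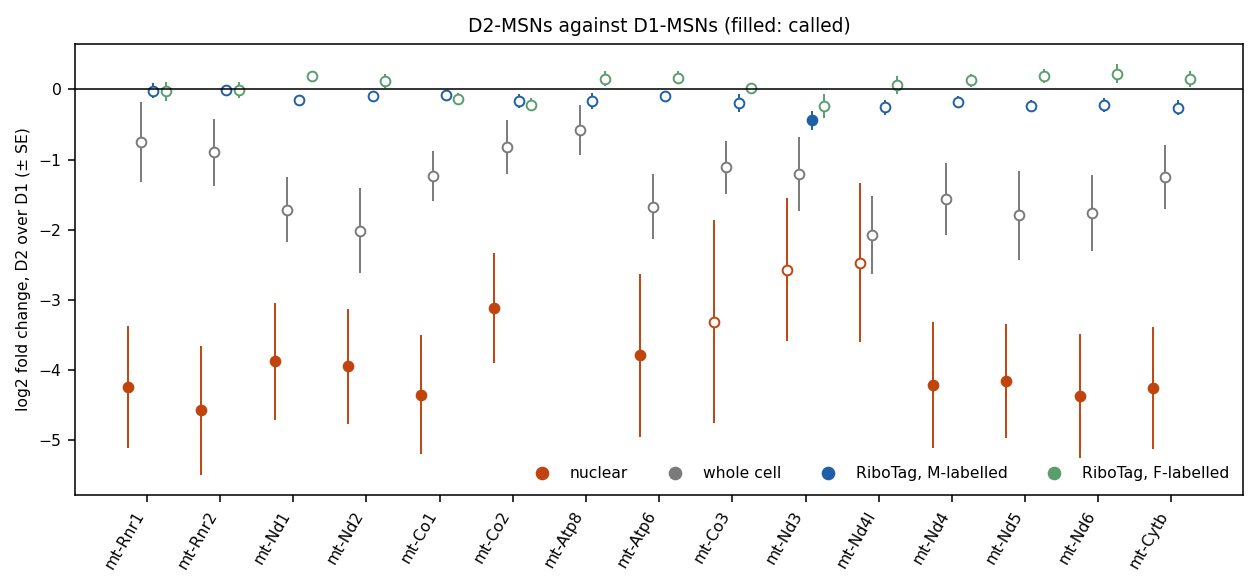
Log2 fold change of D2 versus D1 with its standard error for each tested mitochondrial gene in each set of libraries, with filled points for genes called by edgeR. The called nuclear mRNAs and rRNAs lie between -3.11 and -4.57 (direction the same with total counts), whole cell genes have no call, and among RiboTag genes mt-Nd3 is called at -0.44.

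Against whole cells, nuclei had more of some mitochondrial RNAs and far less of others. In D1-MSNs, 13 members were higher in nuclei (6 mRNAs, 2 rRNAs and 5 tRNAs), against 11.5% of all genes, and 7 were lower (5 mRNAs and 2 tRNAs), against 5.78%. mt-Rnr1 was 5.19 ± 0.69 and mt-Nd6 3.32 ± 0.58 higher on the log2 scale (edgeR, adjusted p = 3.33e-07 and 4.46e-05). mt-Rnr2, mt-Cytb, mt-Nd5, mt-Nd2 and mt-Nd4 were higher by 3.03, 2.52, 2.41, 2.26 and 2.15. Under total counts these values shrank to 0.99, 0.45, 0.33, 0.20 and 0.09 and the calls were lost. mt-Nd1 was higher by 1.81, which turned to -0.24 under total counts. mt-Rnr1 and mt-Nd6 stayed called on that scale, at 3.13 and 1.22. No member had all nuclear D1 libraries above all whole cell D1 libraries in CPM. Under total counts the median of all genes moved from -0.27 to -1.46, and 2 members were higher and 9 lower. The median of the members was then -0.52, and the shares of all genes called on that scale are not given here. In D2-MSNs, 14 members were lower in nuclei (10 mRNAs, 1 rRNA and 3 tRNAs), against 13.8% of all genes, and 0 were higher. Without nuclear D2 number 5 this count was 7, and without number 1 or 7 it was 8.

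The lower genes lay together on the chromosome. mt-Co2, subunit 2 of complex IV, had a median of 42.0 CPM and a highest value of 135 CPM in whole cell D1 libraries, and was at 0.510 to 2.18 CPM in nuclear D1 libraries, below every whole cell D1 library (log2 fold change -3.62 ± 0.52, edgeR, adjusted p = 1.57e-06). mt-Atp6 was at 72.4 to 660 CPM and at 0 to 1.74 CPM (-5.72 ± 0.65, edgeR, adjusted p = 1.78e-08). mt-Atp8 was at 13.5 to 93.5 CPM and at 0 to 0.669 CPM (-4.72 ± 0.57, edgeR, adjusted p = 5.06e-08). mt-Co3 and mt-Nd4l differed by -5.12 and -2.10, and mt-Nd3, between them on the chromosome, by -0.55 (edgeR, adjusted p = 0.567), which became -2.35 and a call under total counts. In D2-MSNs the differences of mt-Co2, mt-Atp8, mt-Atp6 and mt-Co3 were -7.30, -9.50, -9.30 and -8.23.

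All but mt-Atp8 of these genes have near-identical annotated copies in nuclear chromosomes. Of the 31-base words of each member, those also found in the annotated nuclear copies were 100% in mt-Co2, 99.5% in mt-Atp6, 99.9% in mt-Co3, 98.1% in mt-Nd3 and 98.9% in mt-Nd4l, 63.9% in mt-Co1, 62.8% in mt-Nd4 and at most 16.8% in the other mRNAs. A run of copies lies on chromosome 1 between 24611535 and 24616197, on the minus strand, with Gm28661 (mt-Co2), Gm10925 (mt-Atp6), Gm28437 (mt-Co3), Gm10222 (mt-Nd4l) and Gm28439 (mt-Nd4) each at 0 mismatches and Gm28438 (mt-Nd3) at 1. The 5 mRNAs with over 95% shared words took 17.1 to 28.5% of the mitochondrial mRNA counts in whole cell D1, 16.9 to 30.7% in whole cell D2 and 18.6 to 21.1% in RiboTag libraries. In nuclei they took 0.315 to 1.28% in D1 and 0.938 to 3.52% in D2. No nuclear library came near any library of the other methods.

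The chromosome 1 copies named above also had lower mean CPM in nuclei than in whole cells. Gm28661 had a mean of 30.9 CPM (3.38 to 157) in whole cell D1 and 0.468 (0 to 1.30) in nuclear D1 libraries. In RiboTag D1 libraries labelled male its mean was 1.70 CPM. Gm11407, a copy of part of mt-Nd5 on chromosome 4, went the other way in D2-MSNs, at a mean of 1.02 CPM in nuclei and 0.218 in whole cells. mt-Atp8, with 7.47% shared words, took 1.45 to 4.15% of the mRNA counts in whole cells, 2.29 to 3.26% in RiboTag and at most 0.0288% in nuclei. It lies beside mt-Co2 and mt-Atp6, and the sequence between their annotated copies was not read here. Whether mt-Atp8 has a copy there without annotation was therefore not tested. mt-Nd1, mt-Nd2, mt-Nd5, mt-Nd6 and mt-Cytb took 70.7 to 78.7% of the mRNA counts in nuclei, 23.6 to 54.5% in whole cells and 45.8 to 53.7% in RiboTag libraries. Fragments that match several places were left out of the counts and the part of this step in the difference between methods was not tested.

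Levels in RiboTag and whole cells could not be ordered without a choice of scale. With TMM scaling, 11 members were higher and 1 lower in RiboTag D1-MSNs, against 20.6% of all genes higher, and 23 higher and 0 lower in D2-MSNs, against 20%. Of all 36239 genes, 20615 were called lower in D1-MSNs and 20141 in D2-MSNs. The median log2 fold change was 0.95 over the members and -2.37 over all genes in D1-MSNs, and 2.30 and -2.30 in D2-MSNs. With total counts as library size, 0 members were higher and 35 lower in D1-MSNs and 1 higher and 16 lower in D2-MSNs. The medians were then -2.98 and -1.19 over the members and -5.83 and -5.36 over all genes. The shares of all genes called on that scale are not given here. mt-Rnr1 differed by 2.23 and 2.74 under TMM and by -1.64 and -0.61 under total counts. On either scale the median member lay above the median gene.

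Ratios between members within a library need no scaling between libraries. They were taken as the log2 ratio of counts per kilobase with 0.5 added to each count. The ratio of mt-Rnr2 to mt-Rnr1 had a mean and SD of 1.17 ± 0.38 over the 8 D1 and 0.81 ± 0.45 over the 6 D2 whole cell libraries. In nuclei it was -1.30 ± 0.25 over 6 D1 libraries and -1.54 ± 0.25 over 5 D2 libraries. In RiboTag labelled male it was -0.88 ± 0.19 for D1 and -0.89 ± 0.08 for D2, with 6 libraries each. Nuclei and whole cells differed by -2.47 in D1-MSNs and -2.35 in D2-MSNs, and RiboTag and whole cells by -2.05 and -1.70. All 4 comparisons were without overlap and at the smallest p the exact permutation test (two-sided) allows, 0.000333 in D1 and 0.00216 in D2, with adjusted p = 0.00178 and 0.00495 over 16 tests.

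The light-strand mRNA mt-Nd6 was higher against its neighbour mt-Nd5 in nuclei and RiboTag. The ratio lay near 0 in whole cells, at -0.00 ± 0.37 in D1 and -0.12 in D2 libraries. In D1-MSNs the nuclear ratio exceeded that by 0.54 and the RiboTag ratio by 0.72, and in D2-MSNs they exceeded it by 0.56 and 0.86 (exact permutation test, adjusted p = 0.0184, 0.00495, 0.00770 and 0.00495). Counts were made without strand, so that light-strand RNA over mt-Nd5 was counted for mt-Nd5. The ratio of mt-Cytb, the last mRNA of the heavy strand, to mt-Nd1, the first, was 0.65 ± 0.12 in nuclear D1 and -0.01 ± 0.15 in whole cell D1 libraries, with no overlap (difference 0.66, exact permutation test, adjusted p = 0.00178). In D2-MSNs it differed by -0.17 (adjusted p = 0.461, exact permutation test). Between RiboTag and whole cells it differed by 0.08 in D1-MSNs (adjusted p = 0.448, exact permutation test) and by -0.43 in D2-MSNs (adjusted p = 0.0289, exact permutation test). The ratio of mt-Rnr2 to mt-Nd1 differed from whole cells by 1.30 in nuclear D1 and -1.29 in RiboTag D2 libraries (exact permutation test, adjusted p = 0.0165 and 0.00770), and by -0.40 and -0.49 in nuclear D2 and RiboTag D1 libraries (adjusted p = 0.421 and 0.286, exact permutation test).

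Between D2- and D1-MSNs, none of the 16 ratio tests passed. The lowest adjusted p was that of mt-Cytb to mt-Nd1 in whole cells, 0.43 ± 0.15 (SE) higher in D2 (exact permutation p = 0.00599, adjusted p = 0.0959). mt-Rnr2 to mt-Nd1 in nuclei was 0.78 lower in D2 on the log2 scale, at 3.03 against 3.81 (exact permutation p = 0.0173, adjusted p = 0.139), and without nuclear D2 number 3 the difference was -0.95 with an adjusted p of 0.0480. Within lanes this difference was -1.06 in L004 and -0.64 in L005, where the exact permutation test cannot go below 0.1.

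**Figure D4:**
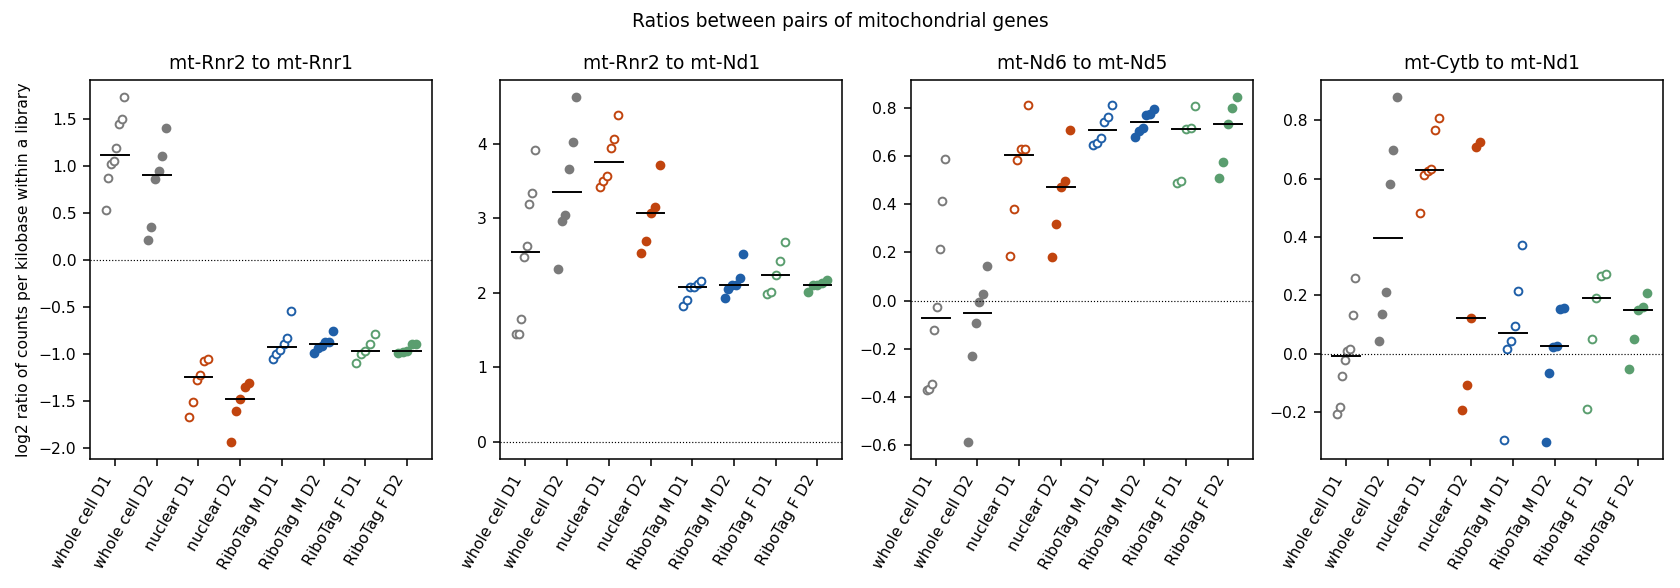
Log2 ratio of counts per kilobase between pairs of mitochondrial genes in each library (open, D1; filled, D2), with a bar at the group median and a dotted line at 0, equal counts per kilobase. The ratio of mt-Rnr2 to mt-Rnr1 lies from 0.22 to 1.73 in whole cells and at -0.54 or lower in every nuclear and RiboTag library.

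The 22 tRNAs were sparsely counted. Over all libraries the highest mean levels were those of mt-Tl1, mt-Tm and mt-Tq, at 69.5, 50.1 and 43.4 CPM per kilobase, and the lowest those of mt-Tn, mt-Tf and mt-Tk, at 7.86, 6.34 and 4.17. Without whole cell D1 number 5 the means of mt-Tl1, mt-Tm and mt-Tq, still the highest, were 46.0, 42.6 and 33.6, and those of mt-Tn, mt-Tf and mt-Tk were 6.99, 4.05 and 1.96 CPM per kilobase. mt-Tl1 had the highest median in whole cell D1, whole cell D2 and nuclear D2 libraries (99.7, 25.7 and 42.3 CPM per kilobase), and mt-Tm in nuclear D1 libraries (94.1). mt-Ts1 led in all 4 RiboTag groups, with medians of 36.2 (D1) and 32.0 (D2) CPM per kilobase in those labelled male, and was at medians of 3.40 in nuclear D1 and 0.31 in nuclear D2 libraries. mt-Ts1 is read from the light strand opposite the end of mt-Co1, so that without strand its counts can include RNA of the other strand. Up to 14 of the 22 tRNA genes had no count in a whole cell D2 library, and up to 12 in a nuclear library. How much of this signal is free tRNA and how much uncut RNA was not tested.

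Of 36 nuclear genes whose products copy, transcribe, process or translate the mitochondrial genome, few were called between cell types. In nuclei 1 of 13 tested was lower in D2-MSNs, against 10.4% of all genes, and 0 were higher, with a median of 0.09. The gene was Trmt10c, a subunit of the mitochondrial enzyme that cuts the 5′ ends of tRNAs, at 5.03 CPM at the lowest and 21.6 at the highest in D1 and at 3.84, 7.33, 5.30, 3.75 and 4.86 CPM in D2 libraries. The ranges overlapped, the log2 fold change was -1.52 ± 0.29 (edgeR, adjusted p = 0.00833), and under total counts no gene of the list was called, while without the FPKM limit 11 of 36 were lower, as were 6435 of all 33197 genes then tested. In whole cells 1 of 28 tested was lower in D2-MSNs, against 0.501% of all genes. It was Tfam, which packs mitochondrial DNA and starts its transcription. It ranged from 14.5 to 29.5 CPM in D1 and from 5.58 to 16.5 CPM in D2 libraries (-0.90 ± 0.21, edgeR, adjusted p = 0.0460). The ranges overlapped, and no gene of the list was called under total counts, without the FPKM limit, or without any single library other than D1 number 8 or D2 number 1. In RiboTag libraries 0 of 21 labelled male and 0 of 23 labelled female were called by edgeR or by DESeq2, with 1 gene at an unadjusted p under 0.05 in each (edgeR). Of all genes, 1465 of 6800 and 1135 of 7067 were under that limit.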

How the data were processed

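RNAseq libraries were made from ribosome-depleted RNA with a stranded kit and sequenced as paired ends. The authors deposited raw counts per gene, made with HISAT2 2.0.5 on GRCm38 and featureCounts over whole genes, without strand, with fragments that touch several genes counted for each and fragments with several matches left out. The featureCounts version is not given in the sources used here. The table had 49 columns and 52636 genes, of which 52489 matched the annotation. The repeat column of whole cell D1 number 1 and the lanes of whole cell D2 number 3 were summed, which gave 47 libraries, and 1 sample, whose title and column name differ in cell type, was not assigned to a group.

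From these counts, CPM used all counts of a library as its total. D2 was compared with D1 within each set of libraries, and methods were compared in 1 fit of the libraries labelled male, with the quasi-likelihood test of edgeR 4.0.16 (R 4.3.3) after TMM scaling and Benjamini-Hochberg adjustment over all genes tested. Genes needed more than 1 CPM in at least 2 libraries and, within a set, an FPKM not below 1 in any 1 library (nuclear, whole cell) or not below 0.1 in any 2 libraries (RiboTag). Ratios were tested by exact permutation with numpy 2.4.6 in Python 3.11.15. DESeq2 1.42.0, other scalings, filters, single omitted libraries, lanes and replicate blocks were alternatives. Sequence sharing was counted in words of 31 bases, and copies were aligned with Biopython 1.88. The fits were tested on simulated data. P-values measure the spread between libraries.

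Named were all mRNAs and rRNAs, the 3 highest and 3 lowest tRNAs by mean level, up to 3 called tRNAs and up to 3 called genes of the nuclear list per comparison, and label checks; mt-Ts1 and the 3 genes leading the tables were chosen after their values were seen. The members and lists were chosen with earlier results of these data known.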

Additional observations from a re-analysis of the deposited data

Results flagged for a closer look

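In 64 checks, each of a measure within a group of 4 to 10 libraries, 7 values lay far from the others. Chance alone marks about 1 check in 20, but the measures of a library share counts, so that the checks were not independent. Whole cell D1 number 5 was far above its group in its share of counts on mRNA (0.644%), rRNA (0.698%), tRNA (0.0542%) and all members (1.40%). Whole cell D2 number 1 was far above its group in rRNA (0.184%) and all members (0.331%). Nuclear D1 number 6 was far above its group in tRNA (0.0275%). The D2 to D1 difference was itself tested between methods, and it was lower in nuclei than in whole cells for 18 members and lower in nuclei than in RiboTag for 24 members.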

How the results depend on the processing

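In nuclei, where 19 members were lower in D2, the count was 29 with every gene in the fit, 11 with lane as a covariate, 0 within L004 and 0 within L005, where fewer libraries were compared, and 10 to 22 with single libraries left out. In whole cells (0 called) it was 4 with DESeq2, 2 with total counts, 6 with the lanes of D2 number 3 kept apart and 0 to 2 with single libraries left out. In RiboTag labelled male (1 called) it was 0 with every gene in the fit and 0 to 2 with single libraries left out. It was also 0 with the libraries that had more Ddx3y than Xist, where fewer libraries were compared. In most cases the library that deviated most alike did not share the number. The exceptions were number 2 in nuclei (r = 0.215) and number 2 in RiboTag labelled male (r = 0.151). So few pairs cannot decide whether numbers pair the libraries. The replicate block kept only numbers present in both cell types, in nuclei numbers 1, 2, 3 and 5. With the replicate block, 0 members were called in nuclei, 0 in whole cells, 1 in RiboTag labelled male and 0 in RiboTag labelled female.

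Total counts as library size changed the method comparisons. The shares of all genes called on that scale are not given here. Nuclei against whole cells gave 2 members higher in D1 and 8 lower in D2 (8 with DESeq2 size factors, 7 to 14 with single nuclear D2 libraries left out, the only ones omitted in that fit). RiboTag against whole cells gave 0 higher and 35 lower in D1 and 1 higher and 16 lower in D2, and 4 higher in D1 with DESeq2 or its size factors. The differences of differences gave 6 and 12 members. mt-Nd1 turned to -0.24 in nuclei against whole cells (D1), and mt-Rnr1 to -1.64 (D1) and -0.61 (D2) in RiboTag against whole cells. The cause was not tested.

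Without the 10 highest other genes, the median share was 1.96% in nuclear D1, 0.398% and 0.420% in RiboTag D1 and D2 labelled female, and 0.407% and 0.382% in those labelled male. As a share of protein-coding counts, mRNA was 0.263% in nuclear D1, 0.0959% and 0.0975% in RiboTag D1 and D2 labelled female, and 0.0979% and 0.0880% in those labelled male. The nuclear difference in mt-Rnr2 to mt-Nd1 ranged from -0.95 to -0.65 with single nuclear D2 libraries left out; D1 libraries were not left out of this test. The within-lane, Ddx3y and Xist, interaction scaling, low-total and outlying-library alternatives were chosen after seeing the data. In nuclear libraries 3 counts stood for 0.0436 to 0.811 CPM, which limits what can be said of low tRNAs and mt-Atp8.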
